A study of Homo sapiens with 12 samples.

Results

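Variants in or near a set of genes that microglia express are associated with the risk of Alzheimer's disease (AD). Of those genes, 10 were followed here in human microglia made in culture. They are CD33, MS4A6A, MS4A4A, BIN1, INPP5D, PLCG2, ABI3, SPI1, ABCA7 and SORL1. Their rows were found by symbol, and each matched 1 of the 62703 gene entries of the count table. The samples were iMGLs, microglia-like cells differentiated from WTC11, an established human induced pluripotent stem cell (iPSC) line. WT and LACTB KO cells were isogenic clonal lines from CRISPR editing of WTC11, 3 clones of each genotype (J, K and L for WT, A, B and C for LACTB KO), and each clone was taken through 2 differentiations, which gave 12 bulk RNA-seq libraries of polyA RNA. The labels call the differentiation a batch. All cells were grown with IL34, TGFb and MCSF, received CX3CL1 and CD200 from day 24, had no other treatment and were collected on day 27, as the labels give it. Libraries are named below by clone and differentiation, so that J2 is clone J in differentiation 2. LACTB encodes a serine beta-lactamase-like enzyme of mitochondria. All clones descend from 1 line, so that the spread between clones is that of editing and culture and not of people.

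The 10 genes fall into a few working groups of microglial biology. CD33 and the MS4A proteins sit in the plasma membrane. CD33 is a siglec, a receptor for sialic acids that recruits SHP phosphatases through its cytoplasmic motifs and so restrains activation, and proteins of the MS4A4A and MS4A6A cluster are linked to levels of soluble TREM2. Inside the cell, PLCG2 acts below TREM2 and Syk, where it cleaves the membrane lipid PIP2, whereas INPP5D (SHIP1) is a phosphatase that removes the PIP3 made by PI3 kinases. ABI3 belongs to an adaptor family of the WAVE complex, which drives actin branching together with Rac. BIN1 bends membranes during endocytosis, SORL1 sorts cargo such as APP through endosomes with the retromer, and ABCA7 is a lipid transporter. SPI1 encodes PU.1, the transcription factor that specifies myeloid cells and binds purine-rich DNA with a GGAA core.

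Estimated counts summed to between 24153233 and 28406943 per library. LACTB was lower in every LACTB KO library than in any WT library, at 71.6 to 98.1 CPM (counts scaled to the library size) in WT and at 7.49 to 9.78 CPM in clones A and C, but clone B held 44.4 and 51.6 CPM, so that the transcript remained there at more than in A or C. The exact permutation test of the clone means gave p = 0.1 (two-sided), which is the smallest that 3 clones against 3 can give. Of 20 microglia markers, 18 were above 1 CPM in every library, with CSF1R at a mean of 1744 CPM and CX3CR1 at 823 CPM, while the defining markers TMEM119 and SALL1 were at means of 1.73 and 0.475 CPM. Genes of stromal cells such as collagens were uneven. The 20 genes of that list summed to between 116 and 11919 CPM in WT libraries. J1 (11919 CPM) and K2 (5781 CPM) were far above the others. In LACTB KO libraries the sums were between 144 and 1414 CPM. Of the 18 tested, 13 were lower in LACTB KO at an unadjusted p under 0.05 (edgeR), beside 5.56% of all genes tested. Genes of endothelial cells summed to 329 to 444 CPM, of which PECAM1, also made by myeloid cells, was a mean of 375 CPM, and the neural, pluripotent, granulocyte and mast cell, erythroid and lymphoid lists summed to at most 32.1, 15.0, 28.5, 10.7 and 4.06 CPM in any library. In bulk RNA, fewer cells of a type and less RNA per cell cannot be told apart.

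In GENCODE on GRCh38 the 10 are protein-coding genes on 5 chromosomes. CD33 (ENSG00000105383.15) lies at chr19:51225064-51243860 and ABCA7 (ENSG00000064687.13) at chr19:1039997-1065572, both on the plus strand. On chromosome 11, MS4A6A (ENSG00000110077.15) at chr11:60172015-60184666 on the minus strand and MS4A4A (ENSG00000110079.19) at chr11:60185657-60318080 on the plus strand are neighbours, and SPI1 (ENSG00000066336.12) is at chr11:47354860-47378547 on the minus strand and SORL1 (ENSG00000137642.13) at chr11:121452314-121633763 on the plus strand. BIN1 (ENSG00000136717.15) is at chr2:127048027-127107288 on the minus strand and INPP5D (ENSG00000168918.14) at chr2:233059967-233207903 on the plus strand. PLCG2 (ENSG00000197943.12) is at chr16:81779279-81962685 and ABI3 (ENSG00000108798.9) at chr17:49210411-49223225, both on the plus strand. The counts were per gene and do not tell exons or transcripts apart.

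All 10 genes were expressed. The lowest count of any of them in a library was 409 (MS4A4A) and the highest was 18096 (INPP5D), and all 10 passed the expression filter of every comparison. To compare genes with each other, CPM were divided by the length of the merged exons in GENCODE. On that scale SPI1 was highest, at 272 ± 13.7 CPM per kb (SD, n = 12 libraries), above 99.5% of the genes tested. ABI3 followed at 134 ± 10.99 CPM per kb, MS4A6A at 79.7 ± 9.08, INPP5D at 66.4 ± 5.68 and BIN1 at 20.0 ± 3.44. ABCA7 stood at 13.4 ± 2.15 CPM per kb, PLCG2 at 8.35 ± 0.853, SORL1 at 8.27 ± 2.57, CD33 at 7.58 ± 0.797 and MS4A4A at 3.72 ± 1.46. The median gene tested was at 3.68 CPM per kb, so that on this scale MS4A4A lay near the middle and the other 9 lay above it. The merged length covers all annotated transcripts, and was 2040 bases for SPI1, 6501 for MS4A4A and 19408 for SORL1. Which transcripts were in use is not known from these counts, so the order depends on the lengths taken.

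**Figure D1:**
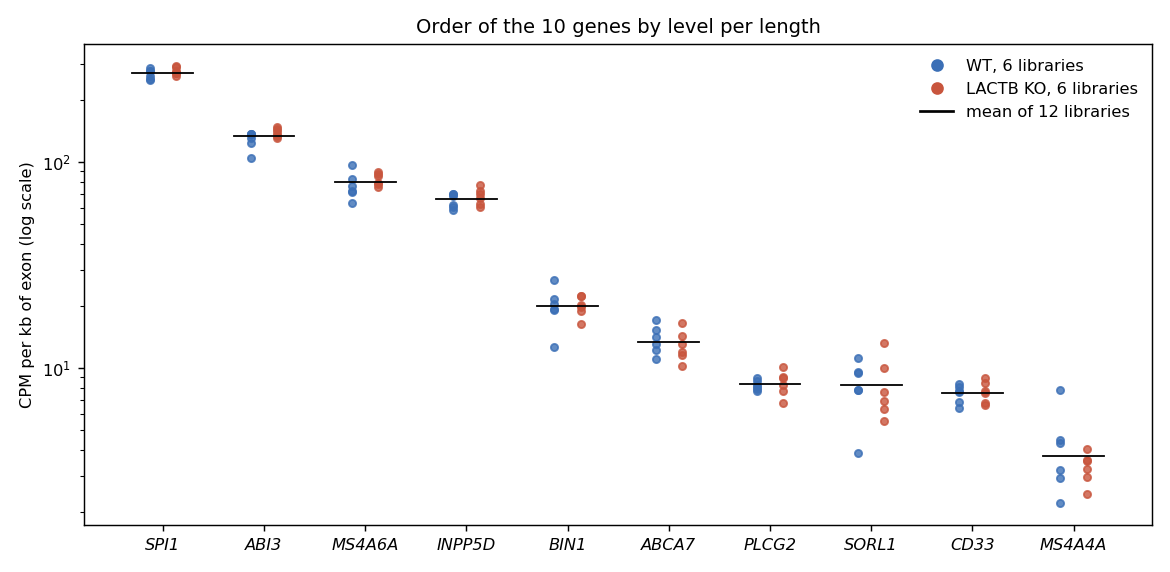
Level of each gene per length in CPM per kb of exon, on a log axis, with 1 point per library (6 WT, 6 LACTB KO) and a line at the mean of 12 libraries. SPI1 is highest at 272 and MS4A4A lowest at 3.72 CPM per kb, and the points of PLCG2, SORL1 and CD33 overlap.

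Most steps of this order held in every library. SPI1 exceeded ABI3 in 12 of 12 libraries, by a geometric mean of 2.04 times, and INPP5D exceeded BIN1 in 12 of 12 by 3.36 times. MS4A6A exceeded INPP5D within each of the 12 libraries by a smaller margin, 1.20 times, and the ranges of these 2 genes overlapped between libraries, as did those of BIN1 and ABCA7. At the lower end the order was not resolved. PLCG2 was above SORL1 in 6 of 12 libraries and SORL1 above CD33 in 7 of 12, so that neighbours among these 3 did not differ beyond their spread, and CD33 was above MS4A4A in 11 of 12. PLCG2 shares 22.6% of its exon bases with a noncoding gene on the same strand (ENSG00000289733), which was given 12.2% as many counts as PLCG2, so that its level depends on how the counting split those reads. ABI3 shares 131 bases of exon with GNGT2 on the opposite strand, a gene with 7.56% as many counts, and the strand setting of the counting is not given in the sources used here.

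Promoter sequence is shown for 4 of the genes, because PU.1 is itself 1 of the 10 and its binding letters are present in some of their promoters and not in others. The promoter entries of RefSeq on GRCh38.p14, each 300 bases from 250 before to 50 after a start, covered 8 of the 10 genes in 11 windows. SPI1 and ABI3 had no entry. Both strands were searched for GAGGAA and for GGAAGT, parts of the PU.1 sequence that share the letters GGAA and can overlap. The stretches below are the 120 bases before a start, read 5′ to 3′ on the strand of the gene, with matches in capitals (TTCCTC is GAGGAA on the opposite strand).
INPP5D, chr2:233060222-233060341, plus strand: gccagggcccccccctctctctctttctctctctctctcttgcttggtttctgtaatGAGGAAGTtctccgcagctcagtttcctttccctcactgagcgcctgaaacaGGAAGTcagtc
MS4A4A, chr11:60280546-60280665, plus strand: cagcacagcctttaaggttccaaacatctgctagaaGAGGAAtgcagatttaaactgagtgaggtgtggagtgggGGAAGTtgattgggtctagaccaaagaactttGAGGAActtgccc
CD33, chr19:51224960-51225079, plus strand: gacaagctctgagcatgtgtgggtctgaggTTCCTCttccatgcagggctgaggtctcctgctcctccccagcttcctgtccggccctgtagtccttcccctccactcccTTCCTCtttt
SORL1, chr11:121452194-121452313, plus strand: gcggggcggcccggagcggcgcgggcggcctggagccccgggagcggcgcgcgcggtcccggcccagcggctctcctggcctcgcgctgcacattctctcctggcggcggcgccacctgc
INPP5D carried GAGGAA at -63 and GGAAGT at -61 and -11 from its start. MS4A4A had GAGGAA at -150, -84 and -13 and GGAAGT at -45. CD33 had 3 matches to GAGGAA, all on the opposite strand, at -90, -10 and 30. Matches to both motifs were also in windows of PLCG2 and of MS4A6A, the latter in different windows of its 4. The entry for PLCG2 starts upstream of the gene's first base in GENCODE (chromosome 16, position 81779279). The window of MS4A4A lies inside the gene, whose first base is at position 60185657 of chromosome 11. That of INPP5D also begins inside its gene (chromosome 2, first base 233059967). GAGGAA was thus in 6 of the 11 windows and GGAAGT in 4 of the 11, against 27.9% and 22.8% of all 35116 windows. By gene these were 5 and 4 of the 8, for which no share over all genes was computed. MS4A6A gave 4 of the 11 windows, and some of these overlap, so the windows are not independent. The windows of BIN1, SORL1 and ABCA7 held neither, and these 3 had a GC content of 75.3%, 78.0% and 70.0%, against a median of 58.7%. Their ratio of observed to expected CpG was 0.895, 1.15 and 0.789, against a median of 0.579 and at most 0.440 in the windows of the other 5 genes. A match in a window is a description of its letters and not a bound site.

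The first comparison was whether loss of LACTB went with a change in these genes. For none of the 10 did the difference between genotypes pass the test. In the edgeR quasi-likelihood test of 3 LACTB KO against 3 WT clones, each the sum of its 2 differentiations, 0 of 10 had an adjusted p under 0.05, beside 0% of all 17577 genes tested, and 0 of 10 had an unadjusted p under 0.05, beside 6.36% of all genes (0.802% higher and 5.56% lower). DESeq2 called 171 genes of the whole table and 0 of the 10. On the log2 scale 8 of the 10 differences were above 0 and 2 below, with a median of 0.05 against 0.01 over all genes tested. Of all genes tested, 9090 were above 0 and 8487 below.

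**Figure D2:**
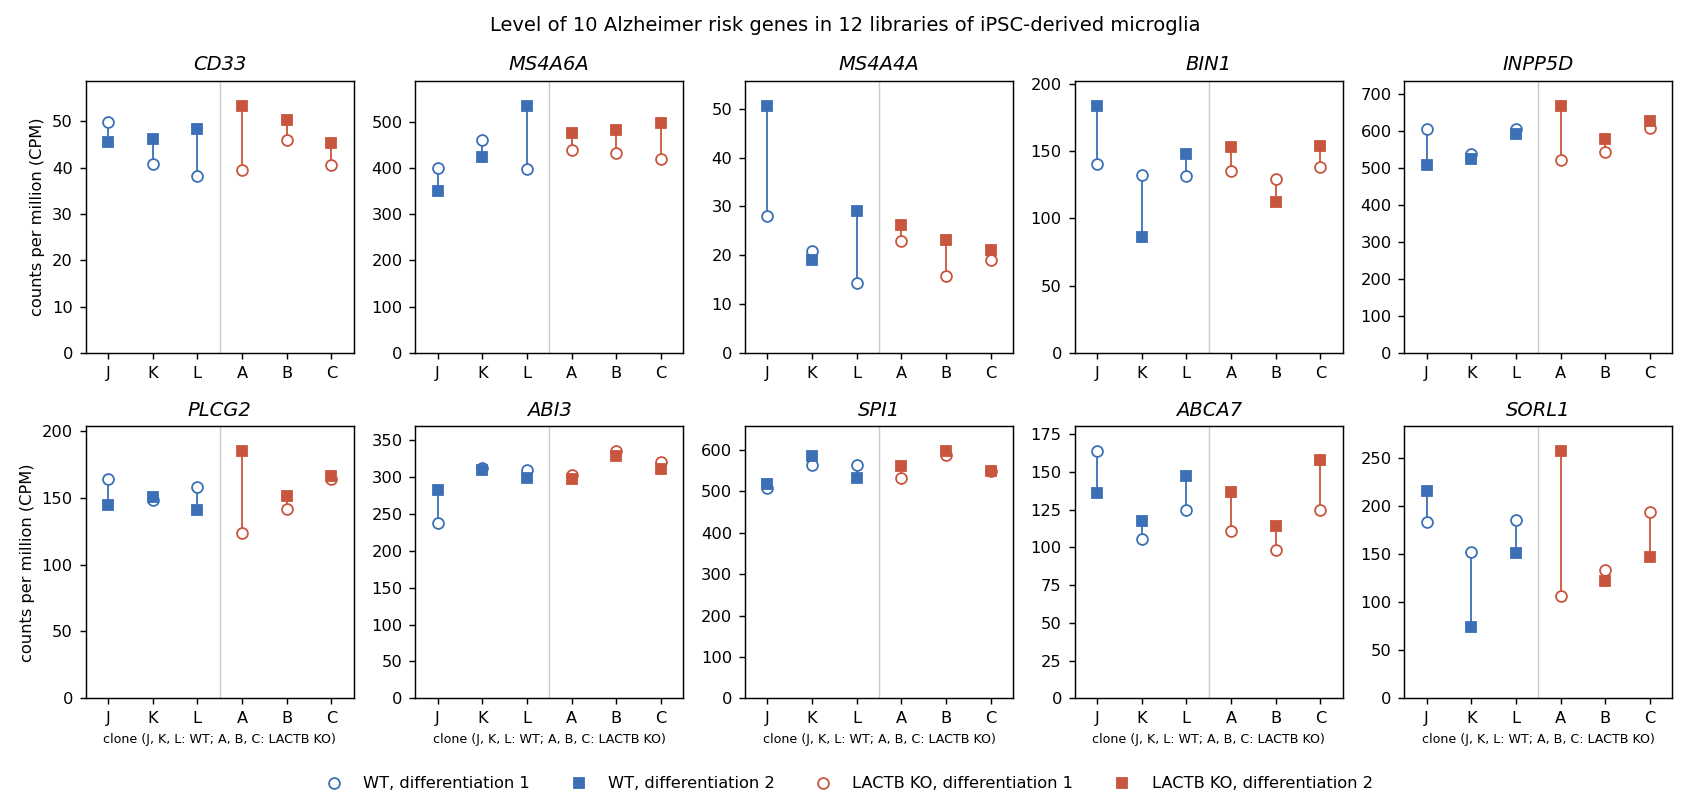
Level of each gene in CPM in the 2 differentiations of each clone (open circles, differentiation 1, filled squares, differentiation 2, joined by a line), WT clones (J, K, L) on the left of each panel and LACTB KO clones (A, B, C) on the right, with axes from 0. The genotypes overlap in every panel, and MS4A4A in J2 (50.6 CPM) and SORL1 in K2 (74.8 CPM) and A2 (257 CPM) lie farthest from the rest.

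Among the membrane proteins, CD33 was at 38.1 to 49.9 CPM (median 45.8) in the 6 WT libraries and at 39.4 to 53.3 CPM (median 45.6) in the 6 LACTB KO libraries. Its genotypes overlapped almost completely. The log2 fold change was 0.04 (SE 0.073, adjusted p = 0.918), with a 95% interval from -0.13 to 0.22, and ran from 0.011 (without B) to 0.094 (without C) when 1 clone was left out. MS4A6A had 350 to 534 CPM (median 411) in WT and 419 to 498 CPM (median 456) in LACTB KO, so that the LACTB KO libraries lay inside the WT range. Its log2 fold change was 0.11 (95% interval -0.12 to 0.33, adjusted p = 0.878), and 0.014 without clone J.

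MS4A4A had the widest interval of the 10. Its WT libraries were at 28.2 and 50.6 CPM in clone J, 20.8 and 19.0 in K, and 14.3 and 29.1 in L, for differentiations 1 and 2. The LACTB KO libraries were at 22.9 and 26.2 CPM in A, 15.9 and 23.2 in B, and 19.1 and 21.1 in C. J2 stood above all others, and the remaining WT libraries spanned the whole LACTB KO range. The log2 fold change was -0.32 (95% interval -0.95 to 0.31, adjusted p = 0.878) with all clones and 0.05 without clone J. J2 was also the library with the highest sum of microglia markers, 9205 CPM against 7804 to 8634 CPM in the other 11, and the part of this in the MS4A4A level was not tested. MS4A7, a neighbour in the same gene cluster, was the most abundant other member of the family at 184 CPM. MS4A4E and MS4A14 had 10.8 and 8.99 CPM, and 10 of the 14 other family members had at most 3 counts in any library. MS4A14 and MS4A7 had log2 fold changes of -0.39 and -0.28 (adjusted p = 0.878 for both), and of the 3 tested none was called.

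Of 16 siglecs and SHP phosphatases, SIGLEC10 was at 318 CPM and SIGLEC9 at 59.8 CPM, beside 45.3 CPM for CD33, and PTPN6 (SHP1) was at 387 CPM. Of the 15 tested 0 were called. An unadjusted p under 0.05 was found for 3 (20%, beside 6.36% of all genes), all lower in LACTB KO. The smallest p were those of SIGLEC15, with a log2 fold change of -2.16 (adjusted p = 0.729), and SIGLEC1, a macrophage receptor, with -0.94 (adjusted p = 0.735). SIGLEC15 was at 6.52 ± 9.44 CPM (SD, n = 6) in WT and 1.46 ± 0.440 in LACTB KO, so that the WT spread exceeded the WT mean.

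The signaling pair was steadier. INPP5D was at 508 to 605 CPM (median 564) in WT and 522 to 668 CPM (median 593) in LACTB KO, with a log2 fold change of 0.08 (95% interval -0.11 to 0.27, adjusted p = 0.880). PLCG2 was at 141 to 164 CPM (median 149) in WT and 124 to 185 CPM (median 157) in LACTB KO. Both the lowest and the highest PLCG2 library belonged to LACTB KO clone A. The log2 fold change of PLCG2 was 0.05 (95% interval -0.11 to 0.21, adjusted p = 0.908). Of 41 genes from TREM2 and TYROBP through Syk, PI3 kinases and phosphoinositide phosphatases to inositol trisphosphate receptors, 24 were higher and 17 lower, and the median log2 fold change was 0.01. None was called. The smallest p were those of INPP5A, a 5-phosphatase, with -0.79 (adjusted p = 0.760), and PLCG1, the relative of PLCG2, with -0.55 (adjusted p = 0.852).

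ABI3 was at 238 to 312 CPM (median 304) in WT and at 297 to 335 CPM (median 315) in LACTB KO. The lowest WT library was J1, and without it the WT libraries were at 282 to 312 CPM. The log2 fold change was 0.12 (95% interval -0.10 to 0.34, adjusted p = 0.878), and the mean of 2 of the 3 LACTB KO clones lay above all WT clones (exact permutation p = 0.3). Without clone J the log2 fold change of ABI3 was 0.036. J1 held the largest stromal sum of all libraries, and its part in the ABI3 level was not tested. All 12 genes of the WAVE complex and Rac list were above 1 CPM in every library, with CYFIP1 at 838 CPM, NCKAP1L, the hematopoietic WAVE subunit, at 796 CPM, and RAC1 at 391 CPM. Of the 12, 0 were called, and 2 (16.7%, beside 6.36% of all genes) had an unadjusted p under 0.05, both lower in LACTB KO. NCKAP1, the subunit used outside blood cells, and WASF3 led by p, at log2 fold changes of -1.71 and -0.52 (adjusted p = 0.726 for both).

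BIN1 was at 86.4 to 184 CPM (median 136) in WT and 112 to 154 CPM (median 137) in LACTB KO, with a log2 fold change of 0.01 (95% interval -0.35 to 0.37, adjusted p = 0.991). Both the lowest and the highest value were WT, in K2 and J2. In the list of BAR proteins and endocytosis genes, 8 of 25 tested were higher and 17 lower, with 0 called. DNM1, a dynamin best known from neurons, had the smallest p, at 5.55 ± 2.59 CPM in WT libraries and 3.19 ± 0.749 CPM in those of LACTB KO (SD, n = 6, log2 fold change -0.79, adjusted p = 0.726).

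SORL1 had the largest SD of log2 CPM of the 10. Its WT libraries were at 184 and 216 CPM in J, 152 and 74.8 in K, and 185 and 151 in L, and its LACTB KO libraries at 107 and 257 CPM in A, 134 and 122 in B, and 194 and 148 in C. The genotypes overlapped throughout, and the lowest and highest libraries were K2 and A2. The log2 fold change was 0.02, with a 95% interval from -0.51 to 0.55 (adjusted p = 0.988), so that a difference of less than about this size in either direction could not be seen. SORT1, another VPS10 receptor, was at 275 CPM, above SORL1 at 160 CPM, and at 30.2 against 8.27 CPM per kb, and VPS35 of the retromer was at 262 CPM. Of 17 tested in that list 0 were called, and the smallest p was that of SORCS2, at 0.888 CPM in WT and at 0.132 CPM in LACTB KO (log2 fold change -2.69, adjusted p = 0.726), followed by SNX6 with -0.17 (adjusted p = 0.878).

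ABCA7 overlapped between genotypes at 106 to 164 CPM (median 130) in WT and 98.0 to 158 CPM (median 120) in LACTB KO. Its log2 fold change was -0.09 (edgeR, adjusted p = 0.915), and -0.31 with the stromal level as covariate (adjusted p = 0.996). When 1 clone was left out it ran from -0.19 (without K) to 0.014 (without B). Both libraries of clone B and both of clone K were at 98.0 to 118 CPM, and all libraries of J, L and C were at 125 to 164 CPM, while clone A had 111 and 137 CPM. Beside ABCA7, 4 other ABCA genes were above 1 CPM in every library. ABCA2 was at 109 CPM and ABCA1, which exports cholesterol, at 40.6 CPM with a range of 8.52 to 119 CPM. The smallest p for genotype in the family were those of ABCA1 and ABCA5, with log2 fold changes of -0.42 and -0.19 (adjusted p = 0.878 for both).

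SPI1 was the most even of the 10, at 508 to 585 CPM (median 547) in WT and 533 to 597 CPM (median 556) in LACTB KO. Its log2 fold change was 0.05 (95% interval -0.14 to 0.24, adjusted p = 0.911), and 0.0035 without clone J. Of the relatives and partners of PU.1, IRF8 was at 435 CPM and CEBPA at 145 CPM, and 6 of 8 tested were higher and 2 lower, with 0 called. CEBPA had the smallest p, at a log2 fold change of 0.24 (adjusted p = 0.878). A list of 20 known PU.1 targets was split evenly, 10 higher and 10 lower, with 0 called. An unadjusted p under 0.05 was found for 2 (10%, beside 6.36% of all genes), both lower. FCGR3A, an Fc receptor, and MSR1, a scavenger receptor, had the smallest p, with -1.22 and -1.04 (adjusted p = 0.746 and 0.777).

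Of 47 other genes of AD loci, 0 were called. Of the 45 tested, 20 were higher and 25 lower. An unadjusted p under 0.05 was found for 3, all lower. That is 6.67%, close to the 6.36% of all genes. In the signaling, endocytosis and retromer lists the share was 2.44%, 4% and 5.88%. It was 0% in the MS4A, ABCA and PU.1 partner lists. FERMT2, an integrin adaptor, was at 9.28 ± 10.2 CPM in WT libraries and 2.07 ± 2.45 CPM in those of LACTB KO (SD, n = 6, log2 fold change -2.17, adjusted p = 0.726). TMEM106B, a lysosomal membrane protein, was at 14.8 ± 7.23 and 7.83 ± 2.31 CPM (log2 fold change -0.91, adjusted p = 0.726). Stromal genes moved with these groups, as given above, and their part was not tested.

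**Figure D3:**
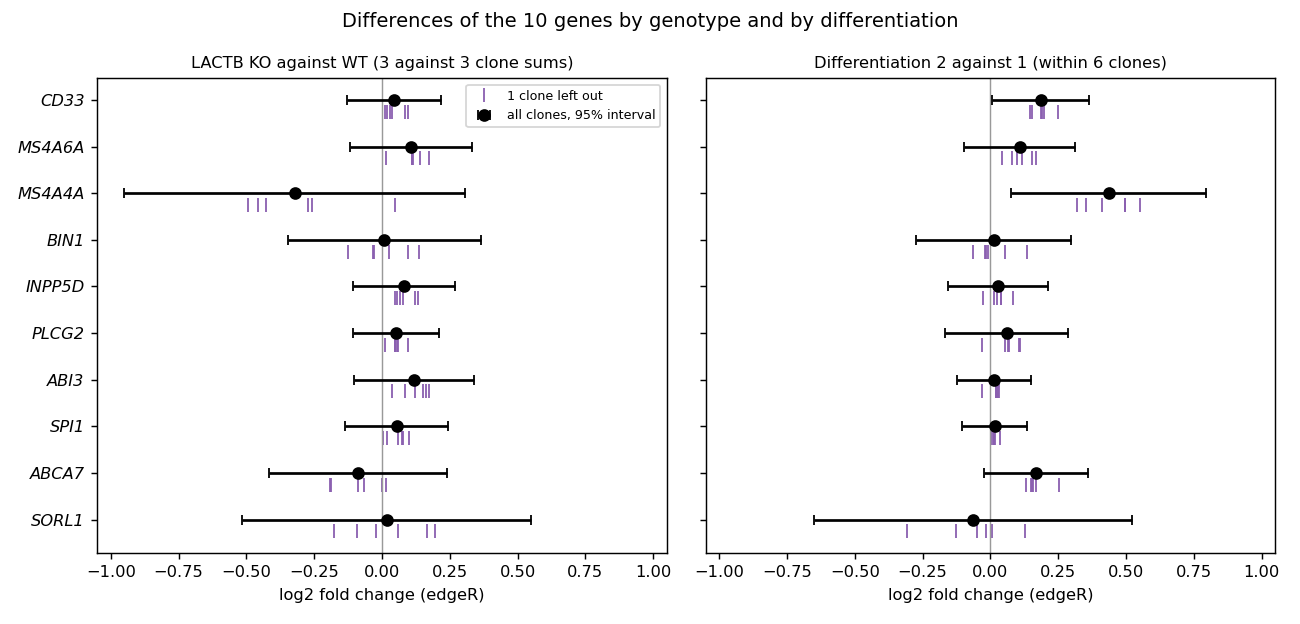
Log2 fold change of each gene from edgeR with its 95% interval (black), for LACTB KO against WT on the left and differentiation 2 against 1 on the right, with purple ticks for the value when 1 clone is left out. Every interval on the left includes 0, and on the right those of CD33 (0.01 to 0.37) and MS4A4A (0.08 to 0.80) do not, although neither passed after adjustment.

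The second comparison was between the differentiations of the same clone, over all 12 libraries with clone as a fixed effect. Here MS4A4A and CD33 showed the smallest p of the 10, both with higher values in differentiation 2. With edgeR 0 of 10 were called, beside 0% of 15530 genes, and 2 of 10 had an unadjusted p under 0.05, beside 9.95% of all genes (6.07% higher and 3.89% lower). Of the 10, 9 were higher in differentiation 2 and 1 lower, and their median log2 fold change was 0.04 against 0.00 over all genes tested. Of all genes tested, 7646 were higher and 7884 lower. MS4A4A had a log2 fold change of 0.44 (SE 0.156, 95% interval 0.08 to 0.80, unadjusted p = 0.0231, adjusted p = 0.404) and was higher in 5 of 6 clones, K being the exception. For CD33 the value was 0.19 (SE 0.078, 95% interval 0.01 to 0.37, unadjusted p = 0.0437, adjusted p = 0.484), again in 5 of 6 clones, with J the exception. ABCA7 was also higher in 5 of 6, all but J, by 0.17 (95% interval -0.02 to 0.36, unadjusted p = 0.0795, adjusted p = 0.570). Without clone J the value of ABCA7 was 0.25 with an unadjusted p of 0.0017 and that of CD33 was 0.25 with 0.0062. The adjusted p were 0.187 and 0.278. Clone J was the exception for both genes, so leaving it out raised both values by design. Over all 14 alternatives the unadjusted p of ABCA7 ran from 0.0017 to 0.784 and was under 0.05 in 2. Over the 6 fits that leave out 1 clone, the unadjusted p of MS4A4A ran from 0.0066 to 0.0661 and that of CD33 from 0.0062 to 0.121. Microglia scaling lowered the value of CD33 to 0.13 (adjusted p = 0.792), with a shift of -0.06 in the median of all genes.

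**Figure D4:**
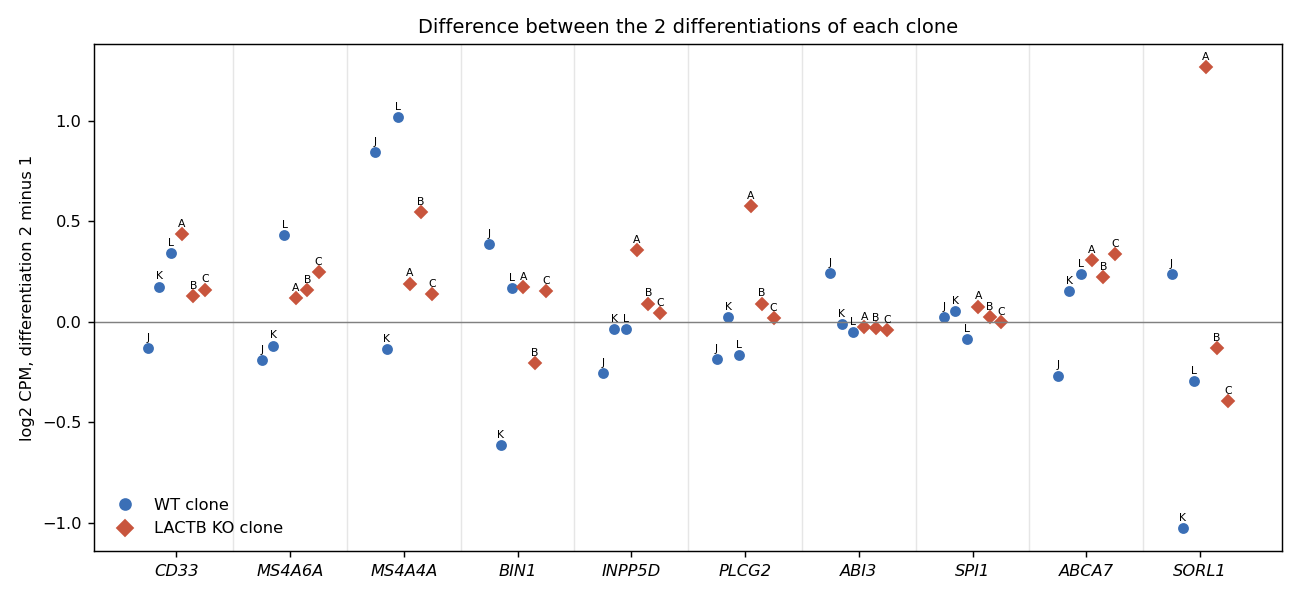
Difference in log2 CPM between differentiation 2 and 1 in each clone (blue circles, WT, red diamonds, LACTB KO, letters give the clone). MS4A4A, CD33 and ABCA7 lie above 0 in 5 of 6 clones, INPP5D lies below 0 in the 3 WT and above 0 in the 3 LACTB KO clones, and SORL1 runs from -1.02 in K to 1.27 in A.

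The other genes had values near 0 or in both directions. SORL1 went from 152 to 74.8 CPM in clone K, a log2 difference of -1.02, and from 107 to 257 CPM in clone A, a log2 difference of 1.27, and its fitted value was -0.06 (95% interval -0.65 to 0.52). BIN1 was likewise lowest in K, at -0.61, and highest in J, at 0.39. SPI1 and ABI3 had narrow intervals, from -0.10 to 0.13 and from -0.12 to 0.15. MS4A6A was at 0.11 (4 of 6 clones higher), INPP5D at 0.03 and PLCG2 at 0.06. K2, where BIN1 and SORL1 were lowest, had the highest mean stromal level of the 12 libraries (6.67 log2 CPM over the list, with J1 next at 6.28 and B2, the lowest LACTB KO library for BIN1, after it at 4.84), and the part of this in either gene was not tested.

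Several partners of the 10 had smaller p in this comparison, though none was called. ABCA1 was at a mean of 61.8 CPM in differentiation 1 and 19.4 CPM in differentiation 2 (log2 fold change -1.75, unadjusted p = 0.0071, adjusted p = 0.308), whereas ABCA5 had 0.31 (adjusted p = 0.308). In the TREM2, PLCG2 and SHIP1 list, 10 of 41 had an unadjusted p under 0.05 (24.4%, beside 9.95% of all genes), 6 higher and 4 lower. ITPR2, a receptor for the inositol trisphosphate that PLCG2 makes, was at 244 CPM and 339 CPM (log2 fold change 0.49, adjusted p = 0.225), and PIK3CG, a PI3 kinase of blood cells, had 0.23 (adjusted p = 0.323). Of 20 PU.1 targets, 7 had an unadjusted p under 0.05 (35%, beside 9.95% of all genes), 6 of them higher in differentiation 2. The smallest p were those of CD14 with 0.66 and NCF1 with 0.42 (adjusted p = 0.186 and 0.239). JUN and SPIB led the PU.1 partners with 0.55 and -0.72 (adjusted p = 0.278 and 0.392).

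Among 13 siglecs and phosphatases tested, 12 were higher, beside 7646 of all 15530 genes. An unadjusted p under 0.05 was found for 3 (23.1%, beside 9.95% of all genes). SIGLEC11 had 0.29 (adjusted p = 0.348) and SIGLEC5 had 0.83 (adjusted p = 0.385). Clathrin heavy chain (CLTC) and RAB5B of the endocytosis list had 0.21 and 0.20 (adjusted p = 0.344 and 0.352). WASF1 and RAC2 of the actin list had 0.38 and 0.32 (adjusted p = 0.388 for both). SNX6 and VPS26A of the retromer list had 0.16 and 0.12 (adjusted p = 0.566 and 0.655), and MS4A4E and MS4A7 had 0.18 and 0.07 (adjusted p = 0.879 and 0.935). Of 44 other AD locus genes, 29 were higher and 15 lower, with ABCA1 and TPCN1, an endolysosomal channel, at the smallest p. An unadjusted p under 0.05 was found for 15.9% of these, and for 16.7% in both the endocytosis and the actin list. In the retromer list (16 tested) and the MS4A family (3 tested) the share was 0%. It was 25% of 8 PU.1 partners and 50% of 4 ABCA genes.

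The interaction asked whether the step between differentiations was the same in both genotypes. None of the 10 was called, beside 0% of 16681 genes, and 0 of 10 had an unadjusted p under 0.05, beside 0.917% of all genes (0.492% higher and 0.426% lower). The adjusted p was 1.00 for all. INPP5D and PLCG2 had the smallest p of the 10. From differentiation 1 to 2, INPP5D went from 605 to 508 CPM in J, 538 to 525 in K and 605 to 591 in L, and from 522 to 668 CPM in A, 542 to 577 in B and 608 to 627 in C. It was thus lower in all 3 WT clones and higher in all 3 LACTB KO clones, but J and A carried most of the size. The interaction of INPP5D was 0.27 on the log2 scale (95% interval -0.07 to 0.60, unadjusted p = 0.102). For PLCG2 it was 0.33 (95% interval -0.08 to 0.74, unadjusted p = 0.0979), with A alone going from 124 to 185 CPM. SORL1 had the largest value, 0.59, with an interval from -0.60 to 1.78. In the lists of partners 0 genes were called, and SIGLEC11 (-0.40, unadjusted p = 0.0218) and MS4A4E (1.02, unadjusted p = 0.0364) were the ones with an unadjusted p under 0.05.

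How far clones of 1 genotype differed was asked with an F test of the differences between clones within WT and within LACTB KO. Of the 10 genes 0 were called, beside 0.0451% of 15530 genes, and 2 had an unadjusted p under 0.05, beside 8.92%. These were MS4A4A (unadjusted p = 0.0345, adjusted p = 0.504) and ABCA7 (unadjusted p = 0.0369, adjusted p = 0.521). MS4A4A was highest in clone J, and without J its unadjusted p was 0.566, while DESeq2 gave an adjusted p of 0.0541 with all clones. The SD of clone means within a genotype, pooled over both, exceeded the SD between the differentiations of a clone for SPI1 (0.073 against 0.038, log2 CPM) and ABI3 (0.113 against 0.074) and, by little, for ABCA7 (0.208 against 0.185) and BIN1 (0.237 against 0.233). For the other 6 genes it was the smaller of the pair, as in PLCG2 (0.067 between clones against 0.183 within them) and SORL1 (0.365 against 0.497). The 2 SDs are not alike. The first is of means of 2 libraries, and the second is of single libraries and holds any shift between differentiations. A smaller first value thus does not show that clones were alike. MS4A4A, with the smallest p for clones of the 10, was among these 6 (0.392 against 0.421). In the lists of partners 0 genes were called, and the smallest p for clones were those of ECHDC3 (adjusted p = 0.145) and TPCN1 (adjusted p = 0.202) among AD locus genes and of INPP4B (adjusted p = 0.227), another phosphoinositide phosphatase.

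The 10 genes differed in how even they were over the 12 libraries. The SD of log2 CPM was 0.073 for SPI1, with only 1.75% of genes tested below it, and 0.123 for INPP5D, 0.127 for ABI3, 0.148 for PLCG2, 0.153 for CD33 and 0.166 for MS4A6A. ABCA7 (0.230) was close to the median of all genes (0.235) and BIN1 (0.266) a little above it. MS4A4A (0.472) and SORL1 (0.481) exceeded 77.8% and 78.3% of genes tested. From the lowest to the highest library SPI1 spanned 1.17 times, MS4A4A 3.53 times and SORL1 3.44 times.

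**Figure D5:**
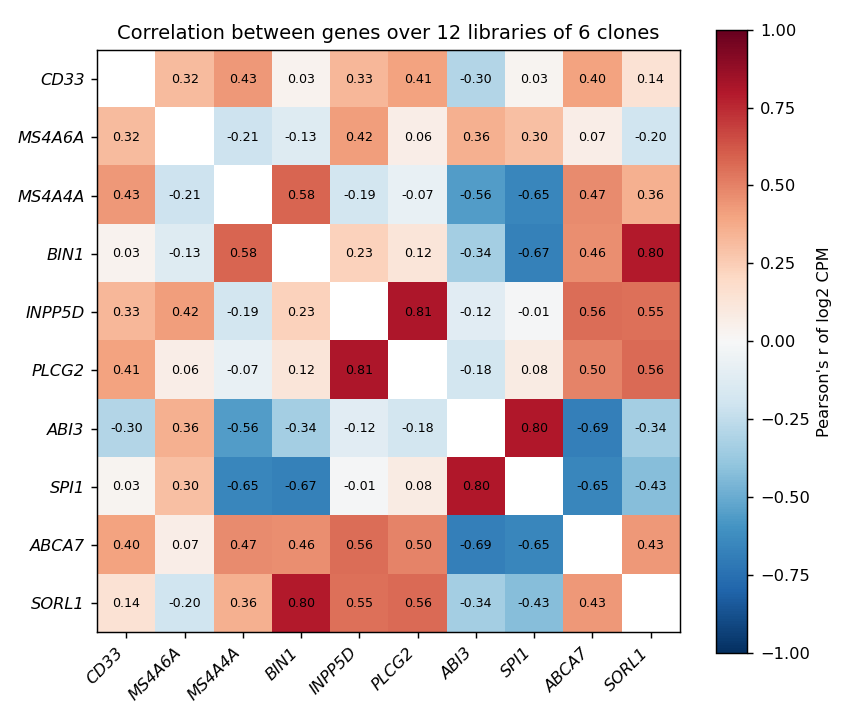
Pearson's r of log2 CPM between each pair of the 10 genes over 12 libraries from 6 clones, coloured from -1 (blue) to 1 (red). INPP5D with PLCG2 (0.81), ABI3 with SPI1 (0.80) and BIN1 with SORL1 (0.80) are the highest and ABI3 with ABCA7 (-0.69) the lowest.

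Over the 12 libraries, which share 6 clones and 2 differentiations and so are not independent, 28 of the 45 pairs of genes had a positive r and 17 a negative one, with a median of 0.12. The pairs INPP5D and PLCG2 (0.81), ABI3 and SPI1 (0.80), and BIN1 and SORL1 (0.80) had the highest r. ABI3 and SPI1 were opposed to ABCA7 (-0.69 and -0.65), and SPI1 was opposed to BIN1 and MS4A4A (-0.67 and -0.65). The 2 MS4A genes had r = -0.21, and MS4A4A went with the mean level of the microglia markers (r = 0.78) more than any other of the 10, although by rank it was 0.43, and J2 is the top library of both. With the stromal level r ran from -0.52 (BIN1) to 0.20 (CD33). These r describe the libraries and were not tested.

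Among 10314 other protein-coding genes with a mean of at least 5 CPM, the pair most like each of the 10 over the 12 libraries was listed. MS4A4A was most like FIG4 (r = 0.95), a phosphoinositide phosphatase, and NPC2 (0.95), a lysosomal cholesterol carrier, and NPC2 was at 803 CPM in J2 against 379 to 510 CPM elsewhere. CD33 was most like TKT (0.89) and ETV1 (0.87), and MS4A6A like MTPN (0.94) and GRSF1 (0.94). INPP5D was most like MYO18A (0.93) and PNRC1 (0.93), and PLCG2 like PLK3 (0.87) and PPP1R3D (0.84). ABI3 was most like ACOT2 (0.96) and HERC6 (0.93), and SPI1 like HMGB3 (0.90) and SFMBT1 (0.90). BIN1 was most like FMNL2 (0.93) and RNF141 (0.91), SORL1 like KMT5C (0.87) and DERL3 (0.86), and ABCA7 like BCAS3 (0.96) and JMY (0.93). The best of so many genes over 12 libraries is high by selection, and nothing about shared function follows.

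Libraries also came together across genotypes. Over the 10 genes K1 was nearest to B1 and B1 to K1, L1 and C1 were nearest to each other, and so were L2 and C2. K2 was nearest to B2, but B2 was nearest to K1. With genotype means subtracted, the 10 genes in K2 and B2 had r = 0.81 and all 15530 genes had 0.61. Both were the highest among pairs of a WT and a LACTB KO library of the same differentiation. The lowest were -0.82 over the 10 genes (K2 with A2) and -0.50 over all genes (L2 with B2). K1 with B1 had 0.25 over all genes. K2 and B2 had stromal levels of 6.67 and 4.84 log2 CPM, and the part of this was not tested. For J and A the values over all genes were -0.03 and 0.03. The labels name no such pairs, and with the 3 pairs as a block, a fit chosen after the data were seen, 0 of the 10 genes were called for genotype.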

How the data were processed

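The authors prepared TruSeq libraries, sequenced them as paired ends, trimmed adapters with Cutadapt, used STAR for alignment to hg38 and deposited 1 estimated count per gene and library (expected counts, with 10.8% to 11.5% of values not whole) without normalization. The counting tool, annotation and strand setting are not given in the sources used here. The values were rounded to whole numbers. The plan had the same count test for whole and for estimated counts.

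The genes, the 10 lists of partners and 8 marker lists, and the alternatives were chosen with earlier results of these data known. Named genes were the 10, LACTB, the 2 with the smallest p in a list where none was called, and for each of the 10 the 2 protein-coding genes with the highest correlation. For the interaction and the clones, the text names only some of these list genes, and levels of other list genes are given as background. A further list gene is not reported here. Tests used edgeR 4.0.16 in R 4.3.3 (quasi-likelihood, TMM, filterByExpr, Benjamini-Hochberg, adjusted p under 0.05), fitted over all genes. Genotype was tested on sums of the 2 differentiations of each clone, 3 against 3, and the other terms on 12 libraries with clone fixed. The authors fitted a mixed model (DREAM). limma 3.58.1 (voom, random clone effect) and DESeq2 1.42.0 were alternatives, besides other scalings, filters, covariates, each differentiation and leaving out each clone. Levels are TMM-scaled CPM, log2 CPM had a prior count of 2, and lengths came from GENCODE version 44, in which 62639 of 62703 identifiers were found. The steps were run on simulated counts with planted changes. Those counts had no added spread between clones, so the run cannot check false genotype calls under such a spread. The p-values for genotype measure the spread between clones of 1 line. In the main fits of the other terms, with clone fixed, p-values measure the spread left between libraries of the same clone. Differentiation numbers are batches in the labels, balanced in the sums, and the fit with them as replicate block changed no call. That fit of 12 libraries had no clone term, so it took the 2 differentiations of a clone as separate replicates of the genotype. After the genotype mean was removed, libraries of the same number in different genotypes correlated at -0.50 to 0.61. Pairs of libraries with different numbers were not compared, so this range does not show whether the number stood out. No columns were left out.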

Additional observations from a re-analysis of the deposited data

Results flagged for a closer look

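ABI3 in WT library J1, at 238 CPM, stood below the other 5 WT libraries (282 to 312 CPM). Its gap was 0.627 of the whole range on the scale of log2 CPM. SORL1 in WT library K2, at 74.8 CPM, stood below the other WT libraries (151 to 216 CPM), with a gap of 0.663 of the log2 range. On the log2 scale both passed Dixon's 95% critical value for 6 samples, 0.625. These were 2 of 22 groups examined, where chance alone marks about 1 group in 20. The check was run on log2 CPM only, so it does not hold for the gaps in CPM. J1 and K2 are the libraries with the largest stromal sums (11919 and 5781 CPM), and the part of this in either value was not tested. INPP5D was lower in differentiation 2 than in 1 in every WT clone and higher in every LACTB KO clone. The test of that difference, the interaction in edgeR, gave 0.27 on the log2 scale (unadjusted p = 0.102, adjusted p = 1.00), so it did not pass.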

How the results depend on the processing

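Under every alternative run, for genotype (16), differentiation (14), interaction (9) and clones (9), 0 of the 10 genes were called. Counts over all genes moved more. For genotype there were 2 genes called with no expression filter and 171 with DESeq2, against 0, and leaving out 1 clone gave 0 to 1. For differentiation there were 80 with no filter, 303 with DESeq2, 3 with no replicate block (here no clone term) and 10 in LACTB KO clones alone. Leaving out 1 clone gave 0 to 50 (50 without J). For clones there were 196 with no filter and 703 with DESeq2, against 7, and leaving out 1 clone gave 1 to 5. The interaction gave 0 in all 9. Blocks for the differentiation (0 genes called for genotype) and for the clone pairs (0) changed no call. For genotype 22 of 160 values of the 10 genes turned sign, for differentiation 21 of 140, and for clone means 7 of 50, with no call on either side, and the cause was not tested. For genotype, the sign turned with the differentiation as replicate block for BIN1 -0.00078 and SORL1 -0.0042, in differentiation 1 alone for CD33 -0.034, BIN1 -0.0062, INPP5D -0.065, PLCG2 -0.13 and SORL1 -0.26, in differentiation 2 alone for ABCA7 0.027, with microglia markers as scaling for ABCA7 0.057, with the stromal level as covariate for BIN1 -0.15, INPP5D -0.043, PLCG2 -0.024 and SORL1 -0.25, without clone J for MS4A4A 0.049 and ABCA7 0.00067, without clone K for BIN1 -0.13 and SORL1 -0.18, without clone A for BIN1 -0.028 and SORL1 -0.093, without clone B for ABCA7 0.014, without clone C for BIN1 -0.035 and SORL1 -0.0205. Between differentiations, the sign turned with no replicate block for SORL1 0.021, with microglia markers as scaling for BIN1 -0.0499, INPP5D -0.033, PLCG2 -0.00094, ABI3 -0.047 and SPI1 -0.046, in WT clones alone for BIN1 -0.024, INPP5D -0.11, PLCG2 -0.11 and SPI1 -0.0073, in LACTB KO clones alone for ABI3 -0.0202 and SORL1 0.25, without clone J for BIN1 -0.063 and ABI3 -0.031, without clone K for SORL1 0.13, without clone L for BIN1 -0.02, without clone A for BIN1 -0.011, INPP5D -0.028 and PLCG2 -0.032, without clone C for BIN1 -0.017 and SORL1 0.0059. As a clone mean, the sign turned in differentiation 1 alone for CD33 -0.027, BIN1 -0.0051, INPP5D -0.065, PLCG2 -0.14 and SORL1 -0.30, with microglia markers as scaling for ABCA7 0.033, in differentiation 2 alone for ABCA7 0.023. Leaving out 1 clone at a time, the values for genotype ran from 0.011 to 0.094 for CD33, from 0.014 to 0.17 for MS4A6A, from -0.49 to 0.049 for MS4A4A, from -0.13 to 0.14 for BIN1, from 0.048 to 0.13 for INPP5D, from 0.011 to 0.10 for PLCG2, from 0.036 to 0.17 for ABI3, from 0.0035 to 0.10 for SPI1, from -0.19 to 0.014 for ABCA7 and from -0.18 to 0.20 for SORL1. Leaving out 1 clone at a time, the values for differentiation ran from 0.15 to 0.25 for CD33, from 0.042 to 0.17 for MS4A6A, from 0.32 to 0.55 for MS4A4A, from -0.063 to 0.14 for BIN1, from -0.028 to 0.084 for INPP5D, from -0.032 to 0.11 for PLCG2, from -0.031 to 0.032 for ABI3, from 0.0074 to 0.035 for SPI1, from 0.13 to 0.25 for ABCA7 and from -0.31 to 0.13 for SORL1. Microglia scaling shifted the median of all genes by 0.14 for genotype. With 3 clones a genotype, the 95% intervals limit what can be seen, and for SORL1 and MS4A4A they exceed 0.5 on the log2 scale.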
